A study of Mus musculus with 21 samples.

Results

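The mouse kidney libraries described here were read for the miRNAs numbered miR-297, miR-466, miR-467 and miR-669. Members were taken by name: every row of the deposited table with 1 of these 4 numbers, whatever its letter or arm, which gave 77 of 1125 rows. Of these rows, 9 held no read in any library. The other 68 held 57 distinct sets of values, because 19 rows fell into 8 sets that were identical in all libraries, and each set was counted once. The 57 distinct members comprised 4 of miR-297, 23 of miR-466, 11 of miR-467 and 19 of miR-669.

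Small RNA was sequenced from whole kidney of male BALB/c mice aged 12 weeks. The mice received folic acid at 250 mg/kg, dissolved in sodium bicarbonate, a dose that injures the renal tubules. Kidneys were taken at day 0 and on days 1, 2, 3, 7, 14 and 28. Each day has 3 libraries, 21 in all, and the groups share strain, sex and age. Whether mice of day 0 were injected is not stated. Every later group received folic acid, so the passage of time and folic acid cannot be told apart. Nothing in the labels ties the 3 libraries of a day to separate animals, and the spread that the p-values rest on may be technical. Each library held between 2875675 and 7110546 reads assigned to miRNAs. Levels are given in CPM (reads set to the same total in each library) after TMM scaling, which corrects for a few abundant miRNAs taking up a changing share of the reads. In whole kidney RNA, fewer cells of a type and less RNA per cell cannot be told apart.

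As background, a mature miRNA is cut from a hairpin and guides Argonaute proteins to messenger RNAs, chiefly through its seed, the bases from the second to the eighth. A hairpin can release a miRNA from its left arm (5p) and from its right arm (3p). Sfmbt2 encodes a Polycomb-group protein, and in mice it is imprinted and expressed from the paternal copy in the early embryo and in extraembryonic tissue. One of its introns carries a large block of tandemly repeated hairpins that is found in rodents, and many miRNAs of these 4 numbers come from that block. They are best known from placenta and embryonic stem cells.

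The name of the locus holds for most members and not for all of them. RefSeq's GRCm38.p6 annotation listed 81 hairpin genes with these numbers. Of these, 71 lay inside Sfmbt2 on chromosome 2, and all 71 fell in the same intron of its long coding transcripts in GENCODE. Among 44 hairpin names in the table, 34 had every gene copy inside Sfmbt2. miR-297a and miR-466f had copies inside and elsewhere. The other 8 names had their gene elsewhere only. These 8 names gave 9 rows with 139 reads over all libraries, 103 of them in miR-466i-5p. None of the 9 rows had enough reads to be tested.

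RefSeq's table of mature miRNAs (GRCm38.p6) matched 8 members, 1 for each of the 8 names whose hairpin lies only outside Sfmbt2. Their sequences are shown because only these had an entry, and they are the members whose hairpins lie outside the locus. RefSeq's table of mature miRNAs matched no member with a hairpin inside Sfmbt2. The runs of alternating bases and the seeds below therefore do not describe the tested members. The seed is in capitals.

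miR-466i-3p: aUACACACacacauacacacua
miR-466j: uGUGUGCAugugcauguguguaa
miR-466k: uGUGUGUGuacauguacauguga
miR-466q: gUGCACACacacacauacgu
miR-467f: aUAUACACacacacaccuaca
miR-467g: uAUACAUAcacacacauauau
miR-467h: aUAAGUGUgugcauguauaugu
miR-669n: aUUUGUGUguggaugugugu

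No seed was shared among these 8 members. Each of them held a run of at least 6 alternating bases, searched on the miRNA strand alone as UGUGUG or its shifted, overlapping form GUGUGU, and likewise as CACACA or its shifted, overlapping form ACACAC. That run was present in 49 of 1679 mature miRNAs in the table, or 2.92%. miR-466i-3p lies at chr13:17747552-17747573 on the plus strand, within an intron of Cdk13 on the opposite strand. miR-466q lies at chr3:28419988-28420007 on the plus strand, within an intron of Tnik on the same strand. miR-466k lies at chr3:85467396-85467418 on the plus strand, within an intron of the gene model Gm37240 on the opposite strand. miR-466j lies at chr10:60960802-60960824 on the plus strand, outside any other gene. miR-467f lies at chr11:69635419-69635439 on the minus strand, within an intron of Fxr2 on the opposite strand. miR-467g lies at chr5:34732872-34732892 on the minus strand, within an intron of Grk4 on the opposite strand. miR-467h lies at chr9:115381898-115381919 on the plus strand, outside any other gene, and miR-669n at chr3:115979905-115979924 on the plus strand, within an intron of Slc30a7 on the opposite strand. These 8 rows held few reads: 17 for miR-466i-3p, 9 for miR-466k, 5 for miR-466j, 2 for miR-466q, 1 each for miR-467g, miR-467h and miR-669n, and none for miR-467f.

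Most members were scarce in the kidney. Of the 57 members, 13 had a read in all 21 libraries, 20 in 11 to 20 libraries, 17 in 2 to 10 and 7 in 1 library. Over all 21 libraries together, 36 members had fewer than 50 reads and 19 fewer than 10. The most abundant member, miR-669a-3p, had a mean of 7.19 CPM and ranked 308 among the 1125 rows. Where no read was found, up to 3 reads remain possible by counting error alone, equal to 1.04 CPM at the lowest depth and 0.422 CPM at the highest. A scarce member missing from a library was therefore not detectable at that depth, which is not the same as absent. The 9 rows without a read were miR-466l-5p, miR-466l-3p, miR-467f, miR-669b-3p, miR-669c-3p, miR-669g, miR-669h-3p, miR-669j and miR-669k-3p.

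More members were seen after folic acid than at day 0. A day 0 library held reads of 25.7 ± 1.15 members (mean ± SD, n = 3), and later libraries held 29.3 ± 3.79 (day 1), 36.7 ± 1.15 (day 2), 35 ± 6.56 (day 3), 36.7 ± 4.16 (day 7), 35 ± 2 (day 14) and 34.7 ± 4.93 (day 28). Deeper libraries show more members, so the number expected at the depth of the shallowest library was also computed. It was 22.5 ± 0.792 at day 0, and then 27.4 ± 2.09 (day 1), 29.9 ± 2.45 (day 2), 31.6 ± 4.72 (day 3), 32.0 ± 1.76 (day 7), 32.1 ± 0.842 (day 14) and 28.7 ± 4.19 (day 28). At that depth every later library lay above the 3 day 0 libraries, whose highest value was 23.0, and the lowest later value was 24.1, in a day 28 library. Over all 875 rows with a read, the same expected number was higher than at day 0 as well, by a ratio of 1.02 (day 1), 1.06 (day 2), 1.07 (day 3), 1.05 (day 7), 1.04 (day 14) and 1.01 (day 28), where the ratio for the members was 1.22, 1.33, 1.41, 1.42, 1.43 and 1.28. A total of 23 members, or 40.4% of the 57, had reads on a later day and none at day 0, beside 169 of the 875 rows, or 19.3%. These counts set 18 later libraries against 3 of day 0, so a scarce row is more likely to be read in the later ones. The 875 rows were not matched to the members in abundance. At the depth of the shallowest library 574 of them were expected at day 0, beside 22.5 of the 57 members. The members therefore had more room to rise in both comparisons.

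**Figure D1:**
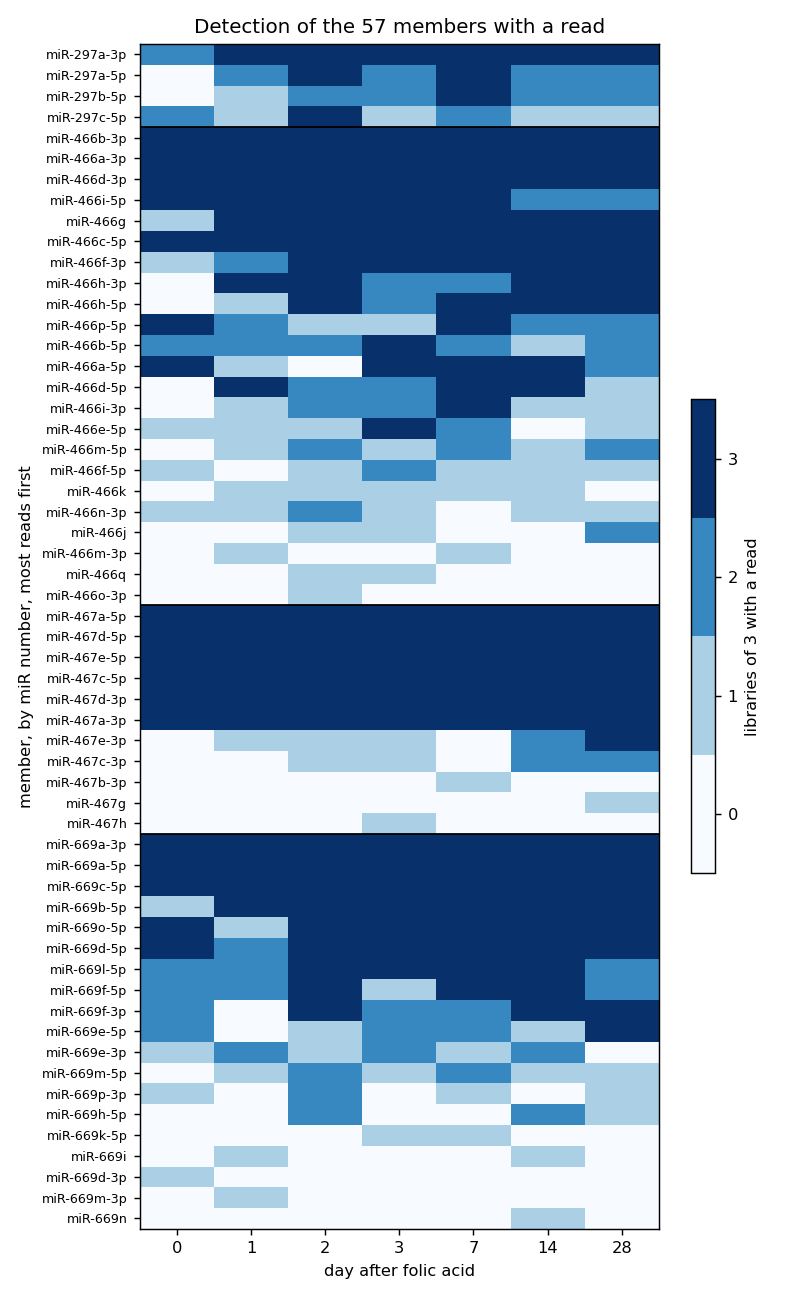
Detection of the 57 members with a read. Rows are members, grouped by miR number and ordered by total reads, columns are days after folic acid, and the colour gives the number of the 3 libraries with at least 1 read. The upper rows of miR-466, miR-467 and miR-669 are dark on every day, 13 members having a read in all 21 libraries, and the lower rows are mostly pale, as in the 7 members with a read in 1 library.

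Several names could not be told apart in the table. miR-669a-3p and miR-669o-3p held identical reads, as did miR-669a-5p and miR-669p-5p, miR-467a-5p and miR-467b-5p, and the 3p rows of miR-466b, miR-466c, miR-466e and miR-466p. The 3p rows of miR-297a, miR-297b and miR-297c were identical too, with 82 reads. miR-467a-3p and miR-467d-3p were equal in 20 of 21 libraries (219 and 220 reads), and miR-466a-3p and miR-466b-3p were equal in 9, with totals that differed by 5.54%. Values given under the first name of such a set belong to the set, and near-identical rows are not separate measurements. How reads that match several hairpins were assigned is not given in the sources used here.

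Counted by hairpin name, the arm with more reads differed by number. The 3p arm held more reads in all 3 miR-297 hairpins with both arms in the table, and in 8 of 13 such miR-466 hairpins. In 4 of the 13 (miR-466i, miR-466m, miR-466n and miR-466o) the 5p arm held more, and miR-466l had no read on either arm. The 5p arm held more in 5 of 5 miR-467 hairpins and in 10 of 12 miR-669 hairpins. For example, miR-467c had 258 reads on 5p and 7 on 3p, and miR-669c had 254 on 5p and none on 3p, whereas miR-466d had 112 on 3p and 19 on 5p. Identical rows enter each of their hairpins, so these counts are not independent.

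Only 12 of the 57 members had enough reads to be tested, and calls among these fell mostly on days 3, 7 and 14. A filter on the reads (edgeR's filterByExpr, minimum count 10, about 2.22 CPM in 3 libraries) was applied to the whole table. By number it left 0 of 4 miR-297, 2 of 23 miR-466, 6 of 11 miR-467 and 4 of 19 miR-669 members. Each later day was compared with day 0 by limma on log2(CPM + 1), and a miRNA was called at a Benjamini-Hochberg adjusted p under 0.05 over all rows that passed. All 6 comparisons share the same 3 day 0 libraries. Differences are on that log2 scale, and at levels this low the added 1 makes them smaller than the fold change.

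On day 1, 1 of the 12 tested members was called higher, beside 14.2% of all tested rows. On day 2 it was 2 members, beside 24.4% of all rows. The count was 8 on day 3 (30.4% of all rows), 11 on day 7 (29.7%), 9 on day 14 (25.1%) and 2 on day 28 (11.1%). No tested member was called lower on any day, and none was lower at an unadjusted p under 0.05, while 11.1%, 19%, 19%, 22.7%, 17.9% and 1.86% of all tested rows were called lower on days 1, 2, 3, 7, 14 and 28. The median difference of the 12 was 0.23, 0.47, 1.04, 1.17, 1.02 and 0.50 on those days, and that of all tested rows was -0.0045, 0.02, 0.06, 0.07, 0.05 and 0.03. All 3 libraries of a day lay above all 3 of day 0 in 2, 4, 8, 11, 9 and 5 of the 12, beside 18.1%, 30.9%, 31.6%, 31.1%, 27.4% and 21.6% of all tested rows. miR-669b-5p is within each of these counts, and its place in that of day 28 rests on 1 read against 1 read. Here and below, counts over the 12 include each row of 2 near-identical pairs, which are not separate measurements. The pairs are miR-466a-3p with miR-466b-3p, and miR-467a-3p with miR-467d-3p. The miR-466 pair made up both calls of day 2 and is within the counts of days 3, 7 and 14. The miR-467 pair is within the count of day 7 only.

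These 12 are not all members, and 5 of them (miR-467a-3p, miR-467d-3p, miR-467e-5p, miR-669b-5p and miR-669c-5p) were below the filter's level in every day 0 library. Only miR-669a-3p reached it in all 3 day 0 libraries, and miR-467d-5p reached it in 2. miR-466a-3p, miR-466b-3p, miR-467a-5p, miR-467c-5p and miR-669a-5p reached it in 1 each. The filter asks for 3 libraries, so every tested member but miR-669a-3p passed with later libraries counted. A member that reached the level only in later libraries had to be higher there, so the counts over the 12 are a description. With no filter, 875 rows were tested, and of the 57 members 4, 1, 11, 13, 14 and 1 were called higher on days 1, 2, 3, 7, 14 and 28, beside 6.97%, 10.9%, 15.4%, 14.1%, 11.7% and 4.23% of all rows. In that fit 0 members were called lower, beside 3.43%, 8.69%, 9.37%, 10.7%, 8.11% and 0.571% of all rows. edgeR's quasi-likelihood test on the recovered reads called 1, 3, 8, 11, 9 and 2 of the 12 higher, where 13.5%, 25.3%, 29.7%, 29.2%, 25.3% and 10.2% of all rows were called higher. Leaving out 1 library moved the small counts most. The count of day 1 became 3 without day 0 replicate 1. That of day 2 became 0 when day 0 replicate 3 was left out, or replicate 1 or 3 of day 2, and 4 without day 3 replicate 2. That of day 28 became 0 without day 0 replicate 3, 4 without day 0 replicate 2, and 1 without day 0 replicate 1 or any 1 of the day 28 libraries.

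**Figure D2:**
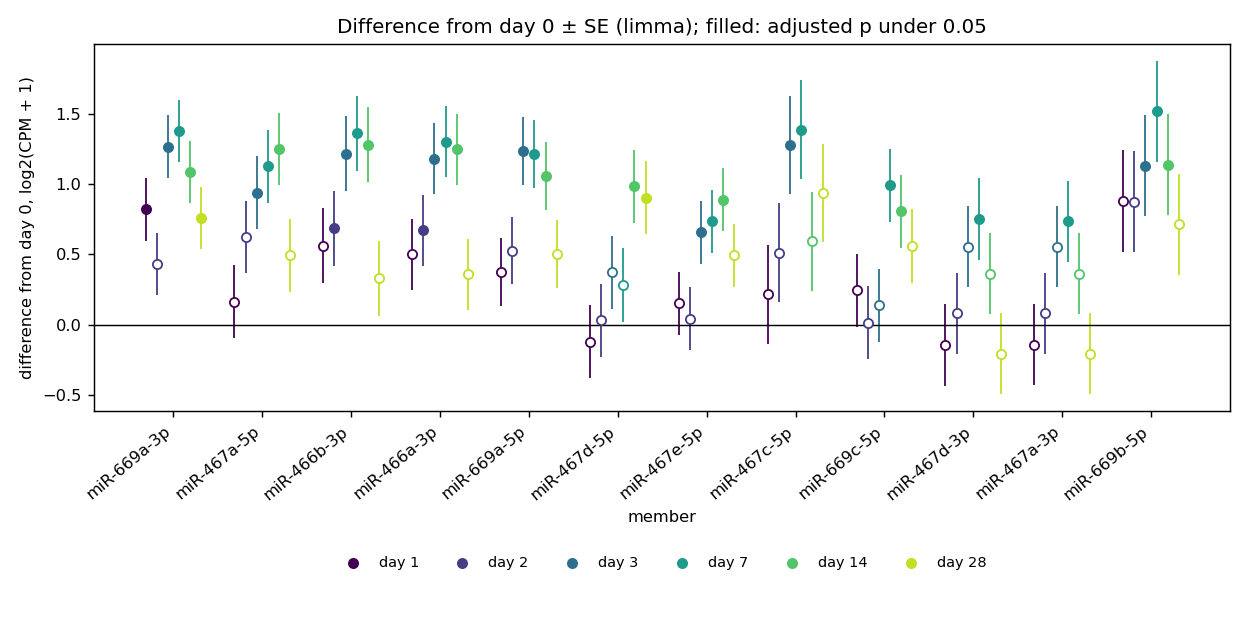
Difference of each later day from day 0 for the 12 tested members, on the log2(CPM + 1) scale, with the SE from limma as bars and filled points where the adjusted p was under 0.05. The filled points lie mostly on days 3, 7 and 14, and miR-467d-5p is filled on days 14 and 28 and open on days 3 and 7.

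miR-669a-3p, the most abundant member, was the only tested miR-669 member called higher on day 1 and on day 28. Its 3 libraries held 3.65, 3.63 and 2.90 CPM at day 0, 6.61, 7.26 and 6.35 on day 1, and 4.99, 3.34 and 6.93 on day 2. They held 8.92, 10.6 and 9.23 CPM on day 3, 11.9, 12.5 and 7.46 on day 7, 6.10, 10.5 and 8.96 on day 14, and 6.98, 6.37 and 5.90 on day 28. On day 2 the groups overlapped, and on every other later day all 3 libraries lay above all 3 of day 0. The difference from day 0 was 0.82 ± 0.22 on day 1 (limma log2 difference ± SE, adjusted p = 0.00898), the only call among the members that day. It was 1.27 on day 3 (adjusted p = 9.28e-05), 1.38 ± 0.22 on day 7 (adjusted p = 3.24e-05) and 1.09 on day 14 (adjusted p = 0.000538). The difference of 0.76 on day 28 (adjusted p = 0.0252) was no longer called when day 0 replicate 3 (0.0902), day 28 replicate 1 (0.0973) or day 28 replicate 2 (0.0524) was left out. It was also lost in 4 of 13 other settings, namely with no filter (0.0831), with library totals (0.0642), with upper-quartile scaling (0.0624) and with DESeq2 (0.0689).

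The other arm under the name miR-669a, which has 12 gene copies, is miR-669a-5p, called on days 3, 7 and 14. It was at 1.30, 3.06 and 1.45 CPM at day 0, and at 2.73, 3.11 and 2.25 on day 1. It was at 2.85, 3.21 and 3.23 on day 2, and at 3.99, 7.33 and 6.22 on day 3. On day 7 the 3 libraries held 6.93, 4.60 and 5.47 CPM, on day 14 4.13, 5.06 and 5.65, and on day 28 2.41, 2.81 and 3.99. The second day 0 library was the highest of that day and still lay under every library of days 3, 7 and 14. The difference was 1.24 ± 0.24 on day 3 (limma adjusted p = 0.000266), 1.22 on day 7 (0.000269) and 1.06 on day 14 (0.00132). It was 0.37 on day 1 (0.264), 0.53 on day 2 (0.0834) and 0.50 on day 28 (0.199), none of them called.

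miR-669b-5p had 1 read at day 0 and was read in every later library. The 3 day 0 libraries held 0, 1 and 0 reads. The reads were 3, 3 and 4 on day 1, 5, 3 and 9 on day 2, and 7, 2 and 12 on day 3. They were 15, 7 and 9 on day 7, 11, 2 and 6 on day 14, and 4, 1 and 6 on day 28. Every later library was above every day 0 library after scaling, from 0.252 to 3.24 CPM against at most 0.191. The 0.252 (day 28 replicate 2) and the 0.191 (day 0 replicate 2) are 1 read each. Their order rests on depth and scaling, with 4494595 and 5886820 reads in these libraries. A count of 0 allows up to 3 reads, so the day 0 libraries without a read are not shown to lie under 0.252 CPM. Day 7 held 31 reads against 1 at day 0, a ratio of 27.5 per read sequenced, with a 95% counting interval from 4.58 to 1121 that covers counting error only. It passed the filter through later libraries alone, so its difference from day 0 is a description. With no filter limma gave 1.12 on day 3 (adjusted p = 0.02) and 1.14 on day 14 (0.0219), and it called day 7 too (0.00221). In the filtered rows the day 3 call was lost without day 3 replicate 3 (0.0828), and the day 14 call without day 14 replicate 1 (0.0684).

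miR-669c-5p was called on days 7 and 14. It was at 1.30, 2.30 and 1.45 CPM at day 0. It stood at 1.37, 1.56 and 4.12 on day 1, 1.57, 1.60 and 1.85 on day 2, and 1.52, 2.05 and 2.21 on day 3. From day 7 all 3 libraries of each day lay above those of day 0, at 5.19, 4.01 and 3.73 on day 7, 4.53, 3.71 and 2.83 on day 14, and 2.64, 2.54 and 3.61 on day 28. The difference was 0.14 on day 3 (limma adjusted p = 0.693), 0.99 ± 0.26 on day 7 (0.00297) and 0.81 on day 14 (0.016). The day 14 call was lost without day 0 replicate 1 (0.064) or day 14 replicate 1 (0.067). DESeq2 did not make it either (0.0531). No day 0 library reached the filter's level, and with no filter the difference was 0.96 on day 7 (limma adjusted p = 0.012) and 0.80 on day 14 (0.0447).

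**Figure D3:**
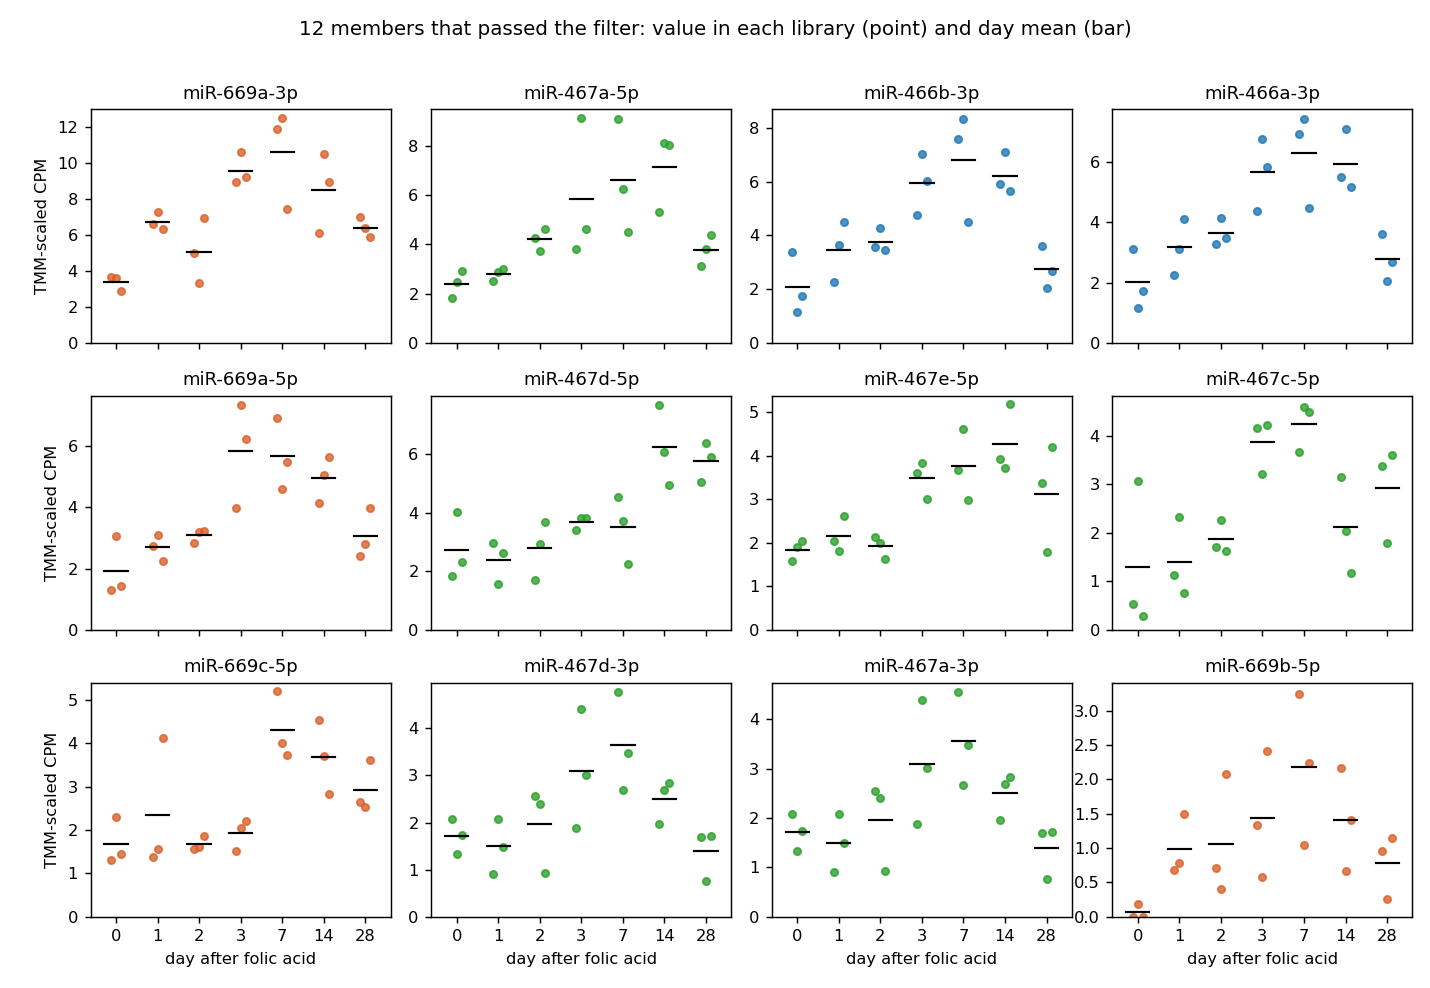
Levels of the 12 tested members in TMM-scaled CPM by day after folic acid, with 1 point per library and a bar at the mean of the 3 libraries of a day. Each panel has its own axis, starting at 0, and colours mark the miR number. miR-669a-3p goes from 3.39 CPM at day 0 to 10.6 on day 7, while miR-467d-5p is highest on day 14, at 6.24.

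The 2 tested miR-466 members, miR-466a-3p and miR-466b-3p, had totals that differed by 5.54% and equal counts in 9 of 21 libraries, and were called on the same days. Whether they hold the same reads is not known. miR-466b-3p held 3.38, 1.15 and 1.74 CPM at day 0, 2.27, 3.63 and 4.48 on day 1, and 3.56, 4.27 and 3.47 on day 2. It held 4.75, 7.04 and 6.02 CPM on day 3, 7.58, 8.32 and 4.48 on day 7, 5.90, 7.09 and 5.65 on day 14, and 3.60, 2.04 and 2.67 on day 28. The libraries of days 2, 3, 7 and 14 lay above all of day 0, and those of days 1 and 28 overlapped them. The difference was 0.69 on day 2 (limma adjusted p = 0.0414) and 1.22 on day 3 (0.000727). It was largest on day 7, at 1.36 ± 0.27 (0.000232), and stood at 1.28 on day 14 (0.000592) and 0.33 on day 28 (0.463). miR-466a-3p gave 0.67 on day 2 (0.0366) and 1.18 on day 3 (0.000631). Its later values were 1.30 on day 7 (0.00023) and 1.25 on day 14 (0.000538), with 0.36 on day 28 (0.393). Both day 2 calls were lost without day 0 replicate 2 or 3, or any 1 of the day 2 libraries, with adjusted p of 0.0669 to 0.194 for miR-466b-3p and 0.0539 to 0.176 for miR-466a-3p. They were also lost with no filter (0.113 and 0.105), upper-quartile scaling (0.0545 and 0.0508), a fit of only the days compared (0.0624 and 0.0603) and DESeq2 (0.0629 for each), and that of miR-466b-3p with a pseudocount of 2 (0.053) or a replicate block (0.0523).

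Among the miR-467 members, miR-467a-5p rose on days 3, 7 and 14. It was at 1.83, 2.49 and 2.90 CPM at day 0, and at 2.51, 2.86 and 2.99 on day 1. It was at 4.27, 3.74 and 4.62 on day 2, 3.80, 9.10 and 4.62 on day 3, 9.09, 6.24 and 4.48 on day 7, 5.31, 8.10 and 8.01 on day 14, and 3.12, 3.83 and 4.37 on day 28. From day 2 on, all 3 libraries of each day lay above all 3 of day 0, although the differences of day 2 (0.62, limma adjusted p = 0.0558) and day 28 (0.49, 0.241) were not called. The called differences were 0.94 on day 3 (0.00459), 1.13 on day 7 (0.000992) and 1.25 ± 0.26 on day 14 (0.000592).

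miR-467d-5p was called on days 14 and 28 only. It stood at 1.83, 4.02 and 2.32 CPM at day 0, 2.96, 1.56 and 2.61 on day 1, and 1.71, 2.93 and 3.70 on day 2. It stood at 3.42, 3.82 and 3.81 on day 3 and at 4.55, 3.71 and 2.24 on day 7. The highest values were 7.67, 6.08 and 4.95 on day 14 and 5.06, 6.37 and 5.90 on day 28, all above the highest day 0 library. The difference from day 0 was 0.37 on day 3 (limma adjusted p = 0.256), 0.28 on day 7 (0.379), 0.99 ± 0.26 on day 14 (0.00436) and 0.90 on day 28 (0.0242). Its day 28 call was lost without day 0 replicate 1 (0.138) or 3 (0.0741), or day 28 replicate 2 (0.0723) or 3 (0.0715), and with no filter (0.0886).

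miR-467c-5p was called on days 3 and 7, and miR-467e-5p on days 3, 7 and 14. miR-467c-5p was uneven at day 0, at 0.525, 3.06 and 0.290 CPM, and held 4.17, 3.22 and 4.22 on day 3 and 3.67, 4.60 and 4.48 on day 7. The difference was 1.28 ± 0.35 on day 3 (limma adjusted p = 0.00459) and 1.39 on day 7 (0.00227), and 0.59 on day 14 (0.176) and 0.94 on day 28 (0.0887) were not called. miR-467e-5p was even at day 0, at 1.57, 1.91 and 2.03 CPM. It held 3.60, 3.82 and 3.01 on day 3, 3.67, 4.60 and 2.99 on day 7, and 3.93, 3.71 and 5.18 on day 14. For both members the libraries of the called days lay above all 3 of day 0. The miR-467e-5p difference was 0.66 on day 3 (0.0185), 0.74 on day 7 (0.00898) and 0.89 ± 0.23 on day 14 (0.00307). Its day 3 call was lost without day 0 replicate 1 (0.064) or day 3 replicate 2 (0.0606), with no filter (0.0586) and with DESeq2 (0.0985). No day 0 library of miR-467e-5p reached the filter's level, and with no filter limma gave 0.70 on day 7 (adjusted p = 0.0366) and 0.88 on day 14 (0.0127).

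miR-467a-3p and miR-467d-3p, 2 rows that differ by 1 read, were called on day 7 in the filtered rows, which they had joined through later libraries alone. miR-467d-3p was at 2.08, 1.34 and 1.74 CPM at day 0 and at 4.76, 2.68 and 3.48 on day 7, with no overlap (0.76 ± 0.29, limma adjusted p = 0.0347). miR-467a-3p gave 0.74 on day 7 (0.0377). Both calls were lost without day 0 replicate 2 or 3 or day 7 replicate 1 or 3, with adjusted p of 0.0646 to 0.147 for miR-467d-3p and 0.0688 to 0.147 for miR-467a-3p. Both were also lost with no filter (0.098 and 0.104), with upper-quartile scaling (0.0837 and 0.0916) and with DESeq2 (0.0649 and 0.0725). On day 28 both rows held 1.69, 0.768 and 1.71 CPM, none above the highest day 0 library. The other arm of these hairpins (miR-467a-5p, miR-467d-5p) held more reads and is described above.

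A limma F test over all days called 12 of 12 tested members, beside 63.1% of all tested rows. Of the 12, 5 reached the filter's level in later libraries only, and miR-669a-3p alone reached it in all 3 of day 0. The 12 include near-identical rows, miR-466a-3p with miR-466b-3p and miR-467a-3p with miR-467d-3p, which are not separate measurements. The F call of miR-669b-5p was lost when any 1 library of day 0 was left out, or day 7 replicate 1 or 3 (adjusted p 0.0583 to 0.0922). Those of miR-467a-3p and miR-467d-3p were lost without day 0 replicate 2 or 3, day 1 replicate 1 or 3, day 3 replicate 2 or 3, day 7 replicate 1 or 3, day 14 replicate 2 or day 28 replicate 2, and that of miR-467a-3p also without day 14 replicate 3 (0.0509 to 0.109). The F calls of miR-467a-3p and miR-467d-3p were lost as well with no filter (0.125 and 0.121), upper-quartile scaling (0.0773 and 0.0743), a replicate block (0.0612 and 0.0593) and DESeq2 (0.0831 and 0.0734).

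The late days (7, 14 and 28) were compared with the early ones (1, 2 and 3), which uses no day 0 library as a reference. Of the 12 tested members, 3 were called higher late and 0 lower, beside 19.3% of all rows higher and 17.6% lower. miR-669c-5p was 0.66 ± 0.15 higher late (limma adjusted p = 0.00165), miR-467d-5p 0.63 (0.00234) and miR-467e-5p 0.42 (0.0141). The call of miR-467e-5p was lost with library totals (0.33, 0.0558). miR-669a-3p (0.23, 0.172), miR-466b-3p (0.17, 0.424) and miR-669a-5p (0.21, 0.269) were not called, and each was called on day 3 against day 0. miR-467a-5p lay beside the threshold (0.38, 0.0504). A difference called for some members and not for others does not show that the members differ from each other, which was not tested.

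The 45 members under the filter had 1 to 112 reads over all libraries, with a median of 14. The 3 with most reads were miR-466d-3p (112), miR-466i-5p (103) and miR-466g (87). miR-466d-3p held 0.525, 0.765 and 0.579 CPM at day 0, 1.52, 2.05 and 1.40 on day 3, and 1.52, 1.78 and 1.75 on day 7, and the libraries of days 3 and 7 lay above those of day 0. miR-466i-5p, whose hairpin lies outside Sfmbt2, had means of 0.667 CPM (day 0), 1.90 (day 1), 1.58 (day 2), 0.451 (day 3), 1.24 (day 7), 1.10 (day 14) and 0.849 (day 28), and the F test with no filter did not call it (adjusted p = 0.433). miR-466g had 0, 2 and 0 reads at day 0 and 7, 2 and 4 on day 1, and its 17 reads on day 3 against 2 at day 0 gave a ratio of 8.97 with a 95% counting interval from 2.13 to 80.0. In the fit with no filter miR-466d-3p was called on days 3 (0.69, limma adjusted p = 0.0283) and 7 (0.70, 0.0262), and miR-466g on days 1, 3, 7 and 14 (0.97, 1.02, 0.89 and 0.89). The limma F test with no filter did not call miR-466d-3p (adjusted p = 0.05004) or miR-466g (0.0515) either.

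Other scarce members were named after their values were seen, because limma with no filter called them. miR-466h-3p had no read in 13335236 reads of day 0, and 3, 3 and 3 reads in the libraries of day 1 and 5, 6 and 3 on day 2. Its ratio was taken against the 3 reads that a count of 0 allows over the day 0 group. That gave 3.71 on day 1, 3.56 on day 2 and 2.46 on day 3. It gave 1.48 on day 7, 3.18 on day 14 and 3.29 on day 28. Such a ratio allows for counting error at day 0 and not for that in the later reads. On days 3 and 7 miR-466h-3p had a read in 2 of 3 libraries. In the fit with no filter it was called on days 1 (0.91, limma adjusted p = 0.015), 2, 14 and 28. miR-297a-5p also had no read at day 0 and 12 reads on day 7, a ratio of 3.55 taken in the same way. miR-466d-5p likewise had no read at day 0 and 5 reads on day 1 (0.58, 0.0207). The other members of this kind were read at day 0. miR-297a-3p had means of 0.366 CPM (day 0), 1.10 (day 3), 1.10 (day 7) and 1.30 (day 14), and was called on those 3 later days (0.62, 0.62 and 0.75). miR-466f-3p went from 1 read at day 0 to 15 on day 3 (0.97, 0.0262), and miR-669f-5p from 2 reads at day 0 to 11 on day 14 (0.70, 0.0428). miR-669o-5p held 2, 1 and 3 reads at day 0, and its mean of 0.529 CPM there was above those of days 1 (0.153) and 2 (0.387) and below that of day 14 (1.93), which was called (0.91, 0.0206). Late against early, 6 of 57 members were called higher and 0 lower with no filter, where 8% of 875 rows were called higher and 8.91% lower. Among the 6 were miR-669o-5p (0.78, 0.00123), miR-466a-5p (0.27, 0.0305) and miR-669f-3p (0.28, 0.046), the last 2 with at most 8 reads on any day.

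Summed over the 57 members, the level rose from 29.0 ± 2.60 CPM at day 0 to 77.3 ± 13.9 on day 7 (mean ± SD, n = 3). The day 0 libraries ran from 26.4 to 31.6 and those of day 7 from 63.0 to 90.7, without overlap. In between, the sum was 41.9 ± 4.10 (day 1), 44.0 ± 2.07 (day 2) and 68.0 ± 10.5 (day 3), and after day 7 it was 72.0 ± 4.55 (day 14) and 48.7 ± 8.20 (day 28). Every later library was above all of day 0, the lowest being 37.8 on day 1. Even at the highest the members held little of the small RNA. Their scaled sum equalled 0.00773% of the CPM total on day 7 and 0.00290% at day 0. After TMM scaling these are not exact shares of the reads. The 45 members under the filter and the 12 above it went from 6.19 to 16.2 CPM (2.61-fold) and from 22.9 to 61.1 CPM (2.67-fold) in turn, between day 0 and day 7. Sums have no p here, because the members were chosen with results of these data known.

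The sums of the 4 numbers are given side by side for day 1, and whether they differ was not tested. The miR-297 sum there rests on 6, 8 and 4 reads, and on 2, 4 and 1 at day 0. On day 1 miR-297 members stood at 3.13 times and miR-466 members at 1.98 times their day 0 sums, miR-669 members at 1.48 times and miR-467 members at 1.01 times. miR-466 libraries held 5.16 to 10.2 CPM at day 0 and 13.0 to 16.8 on day 1, without overlap. miR-467 libraries held 9.91 to 14.2 CPM at day 0 and 10.7 to 12.7 on day 1, within the day 0 range. By day 7 all 4 sums were raised, to 4.73 times (miR-297), 3.11 times (miR-466), 2.17 times (miR-467) and 2.81 times (miR-669). On day 28 they stood between 1.61 and 1.78 times, and the miR-466 and miR-297 libraries overlapped those of day 0. The miR-297 sum rests on at most 2.83 CPM in any library.

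**Figure D4:**
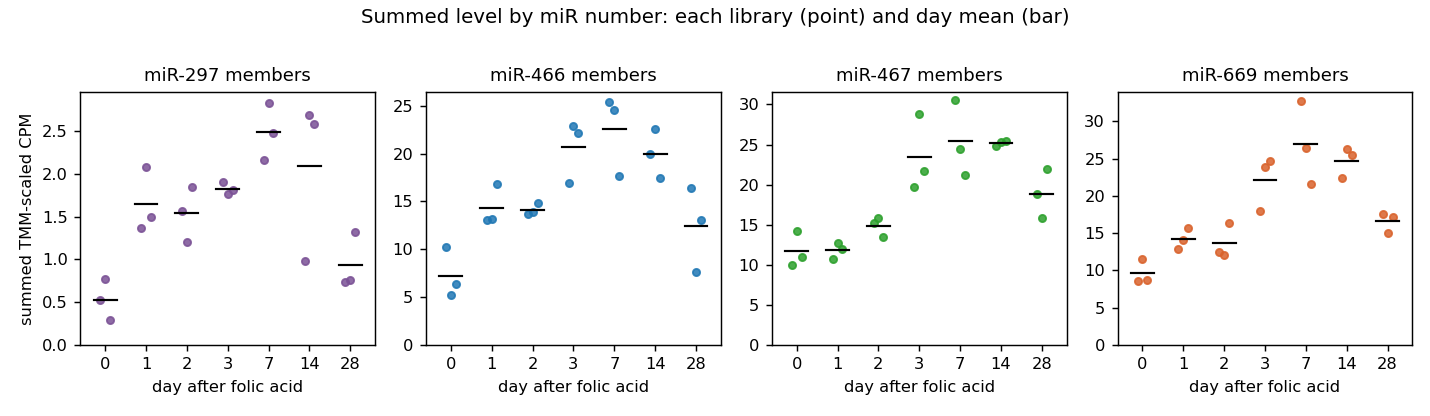
Summed TMM-scaled CPM of the members of each miR number by day after folic acid, with 1 point per library and a bar at the mean of 3 libraries. Each panel has its own axis, starting at 0. The miR-466 sum goes from 7.24 CPM at day 0 to 14.4 on day 1, the miR-467 sum stays at 11.7 and 11.8 on those days, and all 4 sums are highest on day 7.

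Markers of some other cells moved on the same days, and those of others did not. The kidney's tubule miRNAs (miR-192, miR-194, miR-215, miR-204 and miR-30a, all arms) had a scaled sum equal to 20.7% of the CPM total at day 0. The liver miRNA miR-122 was at 0.384 CPM, so the libraries carried the labelled tissue's markers. Leukocyte miRNAs (miR-142, miR-223, miR-150, miR-155, miR-342 and miR-511, 12 rows, none at 0) went from 942 to 1241 CPM in the day 0 libraries to 2304 to 3365 on day 7, with 8 of 10 tested rows called higher. Their sum stood at 1.31, 1.49, 2.14, 2.49, 2.28 and 1.91 times its day 0 mean on days 1, 2, 3, 7, 14 and 28, where the sum of the 57 members stood at 1.44, 1.52, 2.34, 2.66, 2.48 and 1.68 times. Mesenchymal miRNAs (miR-199a, miR-199b and miR-214) went from 1995 to 2402 CPM at day 0 to 5824 to 6053 on day 7, with 5 of 5 called higher. Their sum stood at 1.02, 1.15, 1.66, 2.78, 3.17 and 2.27 times. Tubule miRNAs stood at 0.591 times on day 7, with 6 of 8 called lower and 1 higher. Erythroid miRNAs (miR-144, miR-451 and miR-486) stood at 2.30 times on day 1 (1 of 5 called higher), 2.92 times on day 2 (4 of 5) and 0.646 times on day 7 (0 of 5). Smooth muscle miRNAs (miR-143 and miR-145) stood at 0.98 times on day 7, with 0 of 4 called higher and 1 lower. Neuron miRNAs stood at 0.94 times, with 0 of 2 tested rows called. Endothelial miR-126 stood at 0.764 times, with 2 of 2 called lower. Striated muscle miRNAs stood at 0.483 times, with the 1 tested row called lower. These ratios share the day 0 libraries with those of the members, and the part of these cells in the members' rise was not tested.

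The Dlk1-Dio3 locus is another imprinted region with many miRNA hairpins, set here beside the members. Of its 101 rows, 13 were tested, and 1, 2, 3, 0, 0 and 0 were called higher on days 1, 2, 3, 7, 14 and 28, with 0 lower, beside 14.2%, 24.4%, 30.4%, 29.7%, 25.1% and 11.1% of all tested rows called higher. Its summed level was 256.7 ± 45.2 CPM at day 0, 336.2 ± 39.6 on day 3 and 301.2 ± 35.3 on day 7, at most 1.31 times the day 0 mean. The libraries of day 7 (264.9 to 335.5 CPM) overlapped those of day 0 (209.4 to 299.5). The median difference of the 13 on day 7 was 0.28, and whether the loci differ was not tested.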

How the data were processed

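The authors deposited 1 table of CPM for 1125 mature miRNAs in 21 kidney libraries, with columns that sum to 1 common total. CASAVA 1.8 and mm9 are named per the submitters' processing notes. How reads were aligned and counted, including those with several matches, and which miRBase release applied, is not given in the sources used here. Whole reads were recovered from the deposited CPM steps for 100% of values (tolerance 0.05 read) and served for detection, the filter (filterByExpr, minimum count 10) and edgeR 4.0.16. The main test was limma 3.58.1 with trend on log2(CPM + 1) after TMM scaling, 1 fit over 21 libraries, Benjamini-Hochberg over all tested rows. It was also run on simulated data, with changes planted in rows drawn from all that passed the filter. That run was not specific to members this scarce, and no result here rests on it.

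Values were named for every member called among the filtered rows, for the 8 most abundant and for the 3 members under the filter with most reads; other members called with no filter were named after their values were seen. Members, marker lists and tests were chosen with earlier results of these data known. Alternatives were other pseudocounts, filters, scalings, tools, a replicate block and leaving out libraries. Same-numbered libraries of different days did not deviate together. No 2 libraries of a day agreed within sampling noise.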

Additional observations from a re-analysis of the deposited data

How the results depend on the processing

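No member changed direction in a call under the alternatives run (pseudocounts, filters, scalings, limma fits, edgeR, DESeq2 1.42.0 and leaving out 1 library), and of 36 calls of a member in a comparison 25 were kept in every fit, 10 were lost without at least 1 library and 9 in at least 1 other setting. The counts of tested members called higher on days 3 and 7, and in the F test, stayed within 1.5 times in every setting. A pseudocount of 0.5 called 2 on day 1 and 4 on day 2, and one of 2 called 1 on day 2. With no filter the counts were 4, 1, 14 and 1 on days 1, 2, 14 and 28, and 6 in late against early. A filter at a mean of 1 CPM, chosen after seeing the data, called 4 on day 2; one at 10 CPM left no member. Library totals called 6 on day 2 and 1 on day 28, upper-quartile scaling 0 and 1, DESeq2 1 and 0, giving no adjusted p for 8 of the 12 members on day 28. Fitting only the days compared called 1 on day 2. The replicate block called 2 on day 1, moved no other count by over 1.5 times, and lost the day 2 call of miR-466b-3p (adjusted p = 0.0523) and the F calls of miR-467a-3p (0.0612) and miR-467d-3p (0.0593), each by limma; same-numbered libraries correlated between -0.363 and 0.267, and 6 of 21 correlated best with their own number. For each of these changes the cause was not tested. Another filter changed the number of rows tested and also the rows that set the scaling and the limma trend.

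Leaving out 1 library gave 1 to 3 calls on day 1, 0 to 4 on day 2, 7 to 10 on day 3, 9 to 11 on day 7, 7 to 10 on day 14, 0 to 4 on day 28, 3 to 4 in late against early and 9 to 12 in the F test. Library totals raised the median difference of all rows by 0.178 on day 2 and 0.169 on day 3 and lowered it by 0.109 late against early, and upper-quartile scaling lowered it by 0.179 on day 7 and 0.117 on day 28. Rows called higher were 75.3% of calls on day 2 with library totals (56.1% with TMM), 74.4% on day 3 (61.5%), 70.7% on day 1 (56%), 75.6% on day 28 (85.7%) and 29.3% late against early (52.2%). Upper-quartile scaling gave 45.1% on day 7 (56.6%), 58% on day 28 and 38.2% late against early. Counting identical rows each, the summed levels were 44.0, 67.2, 69.5, 110.2, 123.2, 114.1 and 71.3 CPM at day 0 and on days 1, 2, 3, 7, 14 and 28; with near-identical rows once (chosen after seeing the data) they were 25.3, 37.3, 38.4 and 63.5 on days 0, 1, 2 and 14; library totals gave 47.9 on day 2. At least 10 reads in a library were held by 4, 5, 9.67, 10.7, 11.7, 10 and 8 members on those 7 days. Depth limits the scarce members, 36 of 57 having fewer than 50 reads in all.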
